A study of Mus musculus with 13 samples.

Results

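The 7 genes described here belong to cholesterol synthesis and its control by the transcription factor SREBP2: Srebf2, Insig1, Hmgcs1, Idi1, Fdps, Sqle and Dhcr7. They were chosen by symbol, and all 7 are among the 11761 genes listed in the deposited table. The table holds RNA bound to adipocyte ribosomes of epididymal white fat, with 3 libraries from mice fed a high-fat diet (HFD) for 10 weeks and 3 from mice fed chow for 10 weeks. All animals were Adipoq-NuTRAP mice on the C57BL/6J background, in which the promoter of the adiponectin gene limits a tag on ribosomes to adipocytes, and the tagged ribosomes were captured from homogenised fat through their GFP tag, which enriches mRNA under translation. The sources used here give neither the age of the animals nor the make-up of the HFD. They do not say whether a library is 1 animal or a pool, so the spread behind each p-value is that between libraries and could be technical. The 7 chromatin samples of the series were not analysed here.

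Cells make cholesterol from acetyl-CoA through the mevalonate pathway. The protein of Srebf2, SREBP2, sits in the endoplasmic reticulum bound to its escort Scap, and the proteins of Insig1 and Insig2 hold this pair there while sterol is plentiful. When sterol in that membrane falls, the pair moves to the Golgi, where proteases free the active part of SREBP2, which then switches on the genes of cholesterol synthesis and uptake. Fat tissue holds a large store of the body's cholesterol, mostly unesterified and at the surface of the lipid droplet.

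Values are CPM, read counts scaled to an effective library size, taken as the anti-log of the deposited log2 CPM. The anti-logs summed to 984422 to 1182123 per library, highest in chow replicate 3. Scaling beyond plain read totals is thus already in the values. Fold changes are HFD minus chow on the log2(CPM + 1) scale, so the change of a low gene is understated. Depth was read from the steps between low values, so it is that effective size rather than a plain count of reads. It was 32000000 to 39400000 reads in the HFD libraries, and 32500000, 23200000 and 7420000 reads in chow replicates 2, 1 and 3. Each member rested on at least 46 reads in every library (Dhcr7 in chow replicate 3). Adipocyte markers such as Adipoq were abundant (1305 to 1585 CPM in HFD and 1978 to 2740 CPM in chow libraries). Markers of other cells were also present, and many of them were higher in HFD, where 19.1% of all tested genes rose. Of 19 tested macrophage markers 16 were higher and 1 lower, and their summed level was 591 to 933 CPM in HFD and 186 to 219 CPM in chow libraries. Endothelial markers were higher in 11 of 12 cases and smooth muscle and pericyte markers in 9 of 9. Of 12 fibroblast and progenitor markers 5 were higher (41.7%) and 1 was lower (8.33%), and of 8 mesothelial markers 3 were higher (37.5%) and 0 lower. Of 12 lymphocyte markers 1 was listed, and it did not pass the test. Of 8 epididymis markers 0 were listed. Whether a gene changed within adipocytes or through fewer or more cells of a type, or less or more RNA per cell, cannot be told apart in such bulk libraries.

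Sequences just before the start sites of 3 members are shown because SREBP2 acts on its targets through short elements there, and because Hmgcs1 and Insig1 rose in HFD whereas Srebf2 did not pass the test. Each line is the 250 bases before the RefSeq start on the plus strand of GRCm38.p6, also known as mm10. Capitals mark 2 motifs: the core of the sterol regulatory element, searched as TCACNCCA, and the E-box CACGTG, to which SREBPs can also bind. Both strands were searched.
Hmgcs1, chr13:119690101-119690350: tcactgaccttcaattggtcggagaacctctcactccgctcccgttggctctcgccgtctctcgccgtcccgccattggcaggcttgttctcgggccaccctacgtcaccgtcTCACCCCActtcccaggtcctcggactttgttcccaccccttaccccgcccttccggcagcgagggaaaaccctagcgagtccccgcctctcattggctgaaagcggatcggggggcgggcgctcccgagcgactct
Srebf2, chr15:82147019-82147268: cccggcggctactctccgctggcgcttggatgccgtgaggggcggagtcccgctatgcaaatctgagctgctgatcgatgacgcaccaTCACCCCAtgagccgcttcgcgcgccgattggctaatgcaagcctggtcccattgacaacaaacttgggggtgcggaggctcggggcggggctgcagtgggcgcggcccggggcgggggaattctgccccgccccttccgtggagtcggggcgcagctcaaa
Insig1, chr5:28071162-28071411: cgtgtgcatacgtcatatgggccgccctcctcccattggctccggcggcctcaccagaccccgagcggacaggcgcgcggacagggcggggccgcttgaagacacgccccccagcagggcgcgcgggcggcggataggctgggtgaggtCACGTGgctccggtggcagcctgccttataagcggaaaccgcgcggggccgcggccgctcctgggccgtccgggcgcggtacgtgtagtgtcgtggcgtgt
With the base just before the start as -1, the core began at -137 in Hmgcs1 and at -162 in Srebf2. It was not found in the window of Insig1, which had an E-box beginning at -101. The core occurred in 3.67% of 32851 windows of this length in the RefSeq table and the E-box in 6.02%. A match is only a string of letters, and no protein binding was measured there.

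Of the 7 members, 4 rose in HFD, 0 fell and 3 did not pass the test, against 19.1% of 11643 tested genes that rose and 35.1% that changed in either direction. The genes that rose were Insig1 and the enzyme genes Hmgcs1, Fdps and Dhcr7, and the HFD libraries of each lay above all chow libraries, as they did for 25.2% of tested genes (50.2% did not overlap in either direction). Srebf2 itself and the enzyme genes Idi1 and Sqle overlapped between the diets. The test was limma with Benjamini-Hochberg adjustment over all tested genes and a threshold of 0.05.

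**Figure D1:**
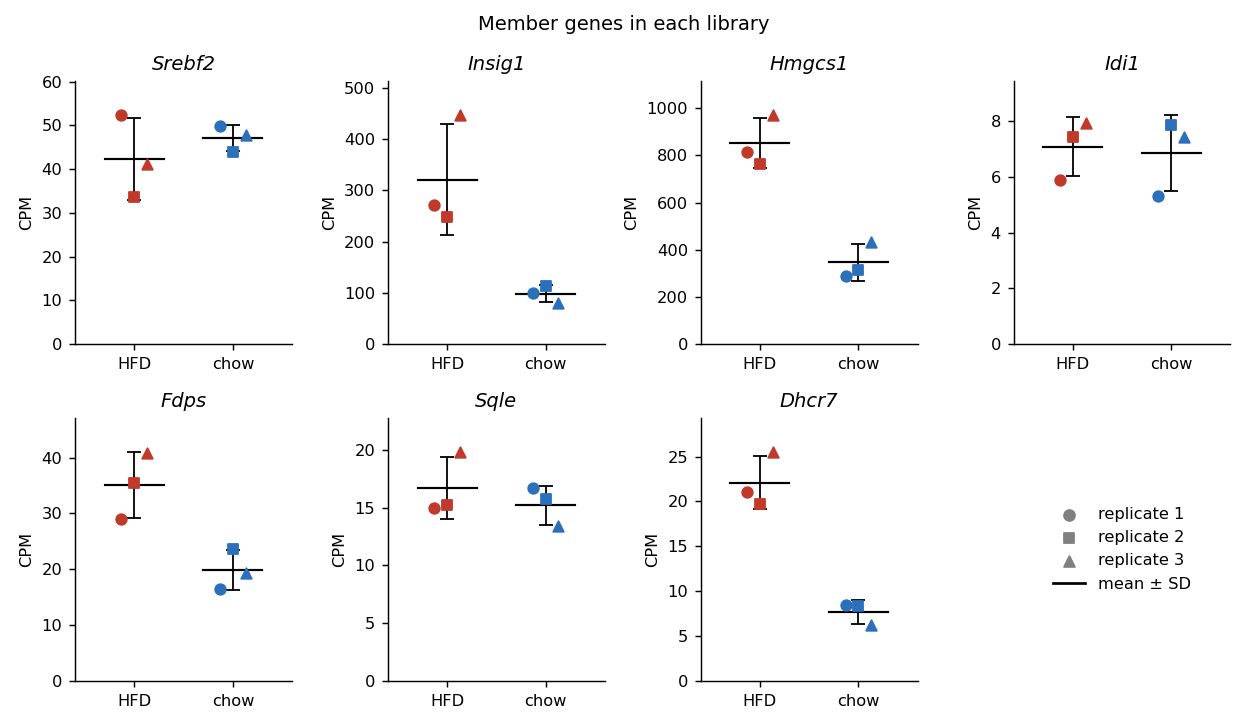
CPM of each member gene in the 3 HFD and 3 chow libraries, 1 panel per gene with its own axis from 0; points are libraries, horizontal lines are means and bars are SD (n = 3). The HFD points of Insig1, Hmgcs1, Fdps and Dhcr7 lie above all chow points, while those of Srebf2, Idi1 and Sqle overlap with chow.

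Srebf2, the gene of the transcription factor, lies on chromosome 15 at 82147269 to 82205379. It had 52.3, 33.6 and 41.1 CPM in HFD replicates 1, 2 and 3, against 49.9, 44.0 and 47.8 CPM in chow replicates 1, 2 and 3. The chow libraries lay within the range of the HFD libraries, which were spread more widely. Srebf2 averaged 42.3 ± 9.44 CPM in HFD and 47.2 ± 2.97 CPM in chow (SD, n = 3 each). The log2 difference of -0.18 (SE 0.17) did not pass (limma adjusted p 0.453), with a 95% interval of -0.56 to 0.21. Its span also holds Mir33, a microRNA gene, whose RNA was not analysed here.

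Insig1 encodes the anchor that keeps SREBP2 in the endoplasmic reticulum and is itself a classic SREBP target; it lies on chromosome 5 at 28071412 to 28078662. It had 271, 247 and 446 CPM in HFD replicates 1, 2 and 3, against 99.7, 114 and 80.4 CPM in chow replicates 1, 2 and 3. The lowest HFD library was well above the highest chow library, and HFD replicate 3 stood above the other HFD libraries. Insig1 rose by 1.67 on the log2 scale (SE 0.22, limma adjusted p 0.000543, 95% interval 1.16 to 2.17), or 3.17-fold, and by 1.41 without HFD replicate 3.

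Hmgcs1 encodes the cytosolic synthase that makes HMG-CoA; it lies on chromosome 13 at 119690351 to 119708260. It had 815, 765 and 969 CPM in HFD replicates 1, 2 and 3, against 288, 315 and 434 CPM in chow replicates 1, 2 and 3. The diets did not overlap, and replicate 3 was the highest library of each diet. Hmgcs1 rose by 1.31 (SE 0.18, limma adjusted p 0.000543, 95% interval 0.92 to 1.71), or 2.48-fold.

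Idi1 encodes the isomerase that interconverts the pair of 5-carbon isoprene units; it lies on chromosome 13 at 8885606 to 8892396. It had 5.90, 7.41 and 7.94 CPM in HFD replicates 1, 2 and 3, against 5.31, 7.84 and 7.41 CPM in chow replicates 1, 2 and 3. Replicate 1 was the lowest library in each diet, and the diets overlapped almost fully. The log2 difference of 0.048 (SE 0.22) did not pass (limma adjusted p 0.881), with a 95% interval of -0.44 to 0.53.

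Fdps joins those units into farnesyl diphosphate, the branch point to sterols, ubiquinone and protein prenylation; the gene lies on chromosome 3 at 89093588 to 89101967. It had 29.0, 35.5 and 40.8 CPM in HFD replicates 1, 2 and 3, against 16.4, 23.6 and 19.4 CPM in chow replicates 1, 2 and 3. The diets did not overlap, with the smallest gap among the members that rose. Fdps rose by 0.80 (SE 0.18, limma adjusted p 0.00896, 95% interval 0.38 to 1.21), or 1.74-fold. Without HFD replicate 3 the rise was 0.68, with a limma adjusted p of 0.0461.

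Sqle encodes squalene epoxidase, an oxygen-dependent control step; it lies on chromosome 15 at 59315092 to 59331193. It had 15.0, 15.2 and 19.8 CPM in HFD replicates 1, 2 and 3, against 16.7, 15.7 and 13.4 CPM in chow replicates 1, 2 and 3. HFD replicate 3 was highest of all and chow replicate 3 lowest, while the other 4 libraries lay close together. The log2 difference of 0.12 (SE 0.17) did not pass (limma adjusted p 0.625), with a 95% interval of -0.27 to 0.51.

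Dhcr7 encodes the reductase that makes cholesterol from 7-dehydrocholesterol, the last step of the pathway and the step that also removes the precursor of vitamin D; it lies on chromosome 7 at 143823167 to 143848410. It had 21.1, 19.7 and 25.5 CPM in HFD replicates 1, 2 and 3, against 8.51, 8.34 and 6.19 CPM in chow replicates 1, 2 and 3. Even the lowest HFD library was far above the highest chow library. Dhcr7 rose by 1.41 (SE 0.19, limma adjusted p 0.000492, 95% interval 1.00 to 1.83), or 2.67-fold.

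The members did not all follow each other within a diet. HFD replicate 3 was the highest HFD library for 6 of the 7 members, all but Srebf2, against 25.6% of all tested genes. The summed level of 8 mesothelial markers, of the cell layer that covers this fat depot, was also highest there. It was 151 CPM, against 50.9 and 51.0 CPM in the other HFD libraries and 21.2 to 34.3 CPM in chow libraries. Of the 8 markers, 3 were called higher in HFD (37.5%, against 19.1% of all tested genes). Macrophage, endothelial and fibroblast markers were instead highest in HFD replicate 1. The part of these cells in the members' values was not tested. In chow no single replicate led: replicates 1, 2 and 3 were the highest for 3, 3 and 1 members. The coefficient of variation over the libraries of a diet was 12.5% to 33.8% in HFD and 6.3% to 22.4% in chow.

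In the wider pathway the enzymes that passed the test all rose, and 13 of 21 did not pass. Of 21 sterol synthesis enzymes, the 5 member enzymes included, 8 rose and 0 fell, or 38.1% against 19.1% of all tested genes; the HFD libraries lay above all chow libraries for 47.6% of the enzymes, against 25.2%. No gene of the list was lower in all HFD libraries than in all chow libraries, as 25.0% of all tested genes were. Leaving out the members, 5 of 16 rose, or 31.2% against 19.1% of all tested genes, a difference that rests on few genes. The median log2 fold change was 0.26 for the 21 enzymes and -0.004 for all tested genes; it was 0.15 for the enzymes without HFD replicate 3. The list was fixed with earlier results of these data known, and it was not tested as a set.

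The other enzymes that rose act after squalene epoxidation, and 4 of them are described here. Lss, which closes squalene epoxide into lanosterol, had 67.6, 69.1 and 97.7 CPM in HFD and 45.3, 37.3 and 44.6 CPM in chow libraries (log2 fold change 0.85, SE 0.17, limma adjusted p 0.00444). Nsdhl and Hsd17b7, partners in the removal of methyl groups from the sterol ring, rose by 1.13 (SE 0.22, limma adjusted p 0.00459) and 1.18 (SE 0.21, limma adjusted p 0.00224). Nsdhl had 26.0, 33.8 and 40.2 CPM in HFD and 16.0, 17.9 and 10.6 CPM in chow libraries. Sc5d, which adds the ring double bond of 7-dehydrocholesterol, rose by 0.47 (SE 0.13, limma adjusted p 0.0194). Each of these 4 had HFD libraries above all chow libraries. The call of Sc5d was lost without chow replicate 1 (0.0694) or HFD replicate 2 or 3 (0.0727 and 0.0755).

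From squalene epoxidation on, 6 of 12 enzymes rose, with a median log2 fold change of 0.61. Up to squalene 2 of 9 rose, or 22.2%, with a median of 0.15. Of all tested genes 19.1% rose, with a median of -0.004, so the share up to squalene was close to that of all genes. This division of the pathway was made after the values were seen, and the difference between its parts was not tested. Over the 21 enzymes HFD replicate 3 was the highest HFD library for 17, or 81.0%.

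**Figure D2:**
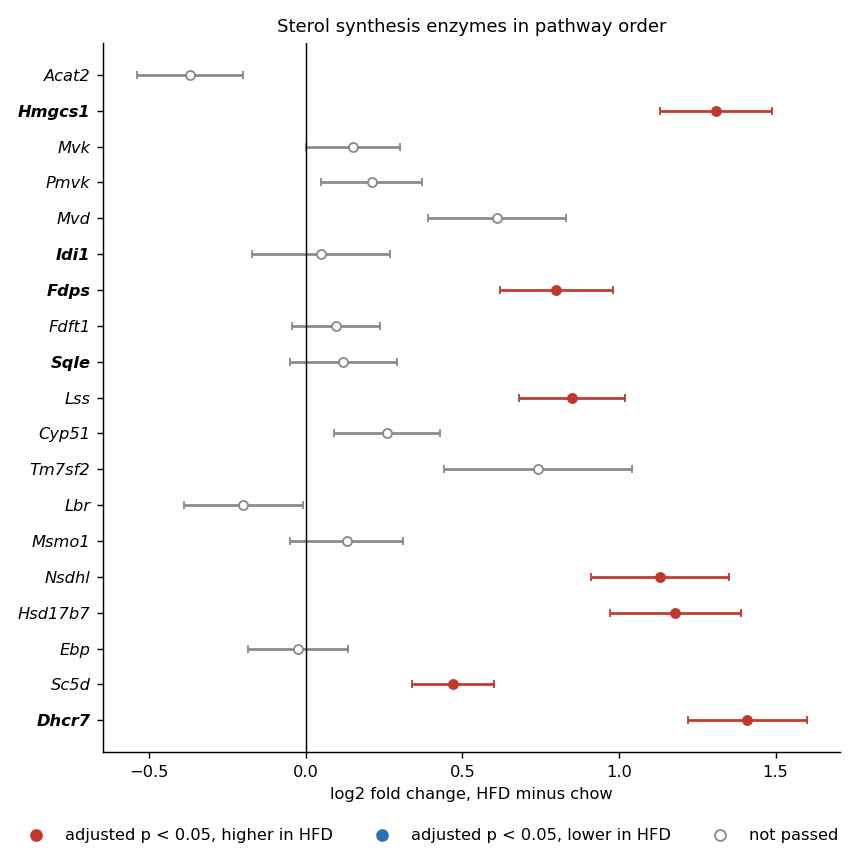
Log2 fold change, HFD minus chow, of 19 of the 21 sterol synthesis enzymes from the top of the pathway (top) to the last step (bottom), with bars of 1 SE (n = 3 libraries per diet); member genes are in bold and filled points passed limma's adjusted p threshold of 0.05. The 7 filled points all lie to the right of 0, and 4 of the 7 stand in the lower part from Nsdhl to Dhcr7.

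The motifs were also counted over the enzyme list, of which 16 genes had at least 1 window of 250 bases in the RefSeq table. The sterol element core was found in 2 of the 16, or 12.5%, against 3.67% of all windows: in 1 of 6 enzymes that rose (Hmgcs1) and in 1 of 10 that did not pass (Msmo1). The E-box was found in 3 of the 16, or 18.8%, against 6.02% of all windows: in 3 of the 6 that rose (Hsd17b7, Sc5d and Dhcr7) and in 0 of the 10 that did not pass. The CCAAT box, searched as CCAAT on both strands, was found in 15 of the 16, or 93.8%, against 33.8% of all windows: in 6 of the 6 that rose and in 9 of the 10 that did not pass. These counts are per gene, so a gene with several starts had more than 1 window in which to match, and they were made after the values were seen and not tested. Of the members, 5 had a window. Idi1 held neither the core nor the E-box, but 2 CCAAT boxes. Dhcr7, with 3 annotated starts, held no core, 1 E-box before 1 of them and 2 CCAAT boxes before another.

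Among the genes that control SREBP2, Insig1 differed from those that fell. Of 14 tested control genes, Insig1 alone rose and 6 fell, against 19.1% of all tested genes that rose and 16.0% that fell. The other 7 did not pass, and the median log2 fold change was -0.30. Insig2, whose protein is the sister anchor of Insig1, had 133, 138 and 137 CPM in HFD and 207, 174 and 269 CPM in chow libraries. The HFD libraries of Insig2 were tightly grouped below all chow libraries (log2 fold change -0.64, SE 0.16, limma adjusted p 0.0129).

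Srebf1, the sister factor that serves fatty acid synthesis, fell by 0.58 (SE 0.19, limma adjusted p 0.0413), with 455, 282 and 350 CPM in HFD and 449, 545 and 617 CPM in chow libraries. Its diets overlapped through HFD replicate 1, and the call was lost without HFD replicate 2 or 3 or chow replicate 2 or 3 (adjusted p 0.0886 to 0.149), with equal totals (0.068) and with quantile normalization (0.0589). Scap, the escort, had 70.0, 59.3 and 65.3 CPM in HFD and 72.5, 73.5 and 65.3 CPM in chow libraries, with a log2 fold change of -0.12 (SE 0.13, limma adjusted p 0.493, 95% interval -0.40 to 0.16). The falls of this group depend on the scaling of the libraries: with CPM set so that the median adipocyte identity gene was equal, which moved the median of all genes to 0.39, 0 of the 14 fell, the group's median was 0.11 and Insig1 rose by 2.09. Adipocyte identity genes were themselves lower in HFD in 12 of 30 cases and higher in 4.

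A further list held genes that bring sterol into cells or move it within them. Of 13 tested uptake and transport genes, 7 rose (53.8%, against 19.1% of all tested genes) and 1 fell (7.69%, against 16.0%), with a median log2 fold change of 0.63. Vldlr, the receptor of triglyceride-rich lipoproteins, rose by 1.27 (SE 0.15, limma adjusted p 0.000247), with 491, 560 and 635 CPM in HFD and 223, 209 and 267 CPM in chow libraries. Stard4, a soluble sterol carrier, rose by 0.78 (SE 0.22, limma adjusted p 0.0227), and this call was lost without any 1 library other than chow replicate 2 and with quantile normalization (adjusted p 0.0522 to 0.108). The single fall was Scarb1, the receptor of high-density lipoprotein, at 39.7, 31.1 and 36.3 CPM in HFD against 58.9, 65.3 and 47.2 CPM in chow libraries (log2 fold change -0.66, SE 0.16, limma adjusted p 0.0117). Scarb1 was no longer called with equal totals (-0.55, adjusted p 0.0527) or scaling to the median identity gene (-0.24, adjusted p 0.441). The count of risen genes was 4 without HFD replicate 1 or 3.

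Genes of sterol esters, export and the sterol-sensing receptor LXR included both rises and falls. Of 11 tested, 4 were higher and 4 lower, or 36.4% each, against 19.1% and 16.0% of all tested genes. Nceh1, which splits cholesteryl esters, had 15.0, 11.8 and 13.2 CPM in HFD and 1.13, 1.03 and 0.953 CPM in chow libraries, and rose by 2.81 (SE 0.21, limma adjusted p 2.43e-05). Soat1, which makes those esters, had 40.8, 24.3 and 32.7 CPM in HFD and 6.45, 5.03 and 6.19 CPM in chow libraries, and rose by 2.26 (SE 0.21, limma adjusted p 8.19e-05). Both genes are strongly expressed in macrophages, whose markers were higher in HFD too (summed level 591 to 933 CPM in HFD and 186 to 219 CPM in chow libraries); the part of those cells was not tested. Mylip, an LXR target that encodes a ubiquitin ligase, rose by 1.07 (SE 0.22, limma adjusted p 0.00533), with HFD libraries above all chow libraries.

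Apoe, the apolipoprotein of sterol export, fell by 1.24 (SE 0.21, limma adjusted p 0.0021), with 1113, 1010 and 776 CPM in HFD and 2091, 1846 and 2957 CPM in chow libraries. Abca1, the pump that loads cholesterol onto apolipoproteins, fell by 0.55 (SE 0.14, limma adjusted p 0.0139), with 1105, 1003 and 1176 CPM in HFD and 1629, 1499 and 1675 CPM in chow libraries. That call was lost without HFD replicate 2 (adjusted p 0.0684) and with the identity-gene scaling (-0.13, adjusted p 0.546), whereas Apoe still fell under that scaling (-0.81, adjusted p 0.00182). Cyp27a1, a sterol hydroxylase, differed by -0.73 (SE 0.24, limma adjusted p 0.0414), with overlapping diets and a call that was lost without any 1 of 4 libraries (HFD replicate 2 or 3, chow replicate 1 or 2; adjusted p 0.0909 to 0.14), with equal totals (0.102), quantile normalization (0.0502) and the identity-gene scaling (0.386). The group held 1 fallen gene without HFD replicate 2, and 2 without HFD replicate 3 or chow replicate 1.

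**Figure D3:**
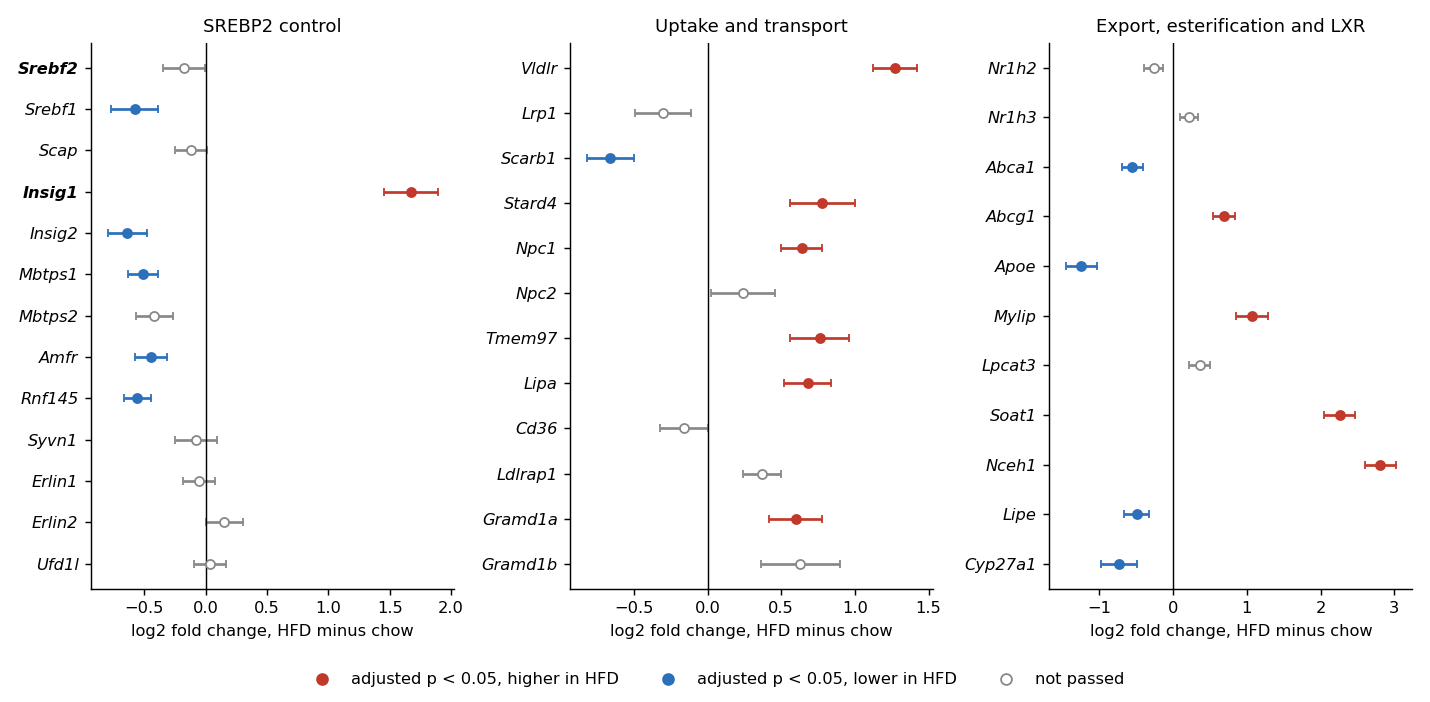
Log2 fold change, HFD minus chow, with bars of 1 SE (n = 3 libraries per diet) for genes of SREBP2 control, sterol uptake and transport, and sterol export, esterification and LXR, each panel with its own horizontal scale; filled points passed limma's adjusted p threshold of 0.05 and member genes are in bold. In the control panel Insig1 stands alone to the right of 0 among the filled points, while 6 of the 12 uptake and transport genes drawn are filled to the right.

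The genes whose values over the 6 libraries were most like those of the members were named by the smallest root mean square difference between profiles centred on each gene's mean, on the log2(CPM + 1) scale, among 8588 genes. Closest to the mean of the 5 member enzymes were Tmem181a (0.058), Tmem165 (0.059), Marveld1 (0.070), Nek6 (0.070) and Setd8 (0.075). That mean joins enzymes that rose with Idi1 and Sqle, which did not pass, so it is not the profile of each enzyme. The 5 genes closest to it rose by 0.62 to 0.87 on the log2 scale. A rise of this kind follows from their choice, since the compared profiles include the difference between diets. Closest to Srebf2 were Iqce (0.017), Phrf1 (0.026) and Nisch (0.032). Closest to Insig1 were Adam12 (0.15), the chemokine gene Ccl6 (0.15) and Plxna4 (0.17). The measure is not scaled to the size of a profile's change, so its values cannot be compared between Insig1, Srebf2 and the enzyme mean. None of these belongs to the lists of sterol genes.

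The calls of the members did not depend on the settings tried. Under 15 other settings (other pseudocounts, filters, scalings, weights, a block by replicate number, and each library left out in turn), Insig1, Hmgcs1, Fdps and Dhcr7 passed in all 15. Their log2 fold changes ranged from 1.41 to 2.09, 1.19 to 1.73, 0.68 to 1.2 and 1.25 to 1.80 in that order of genes. Srebf2, Idi1 and Sqle passed in 0 of 15, with ranges of -0.34 to 0.24, -0.24 to 0.42 and -0.003 to 0.52.

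**Figure D4:**
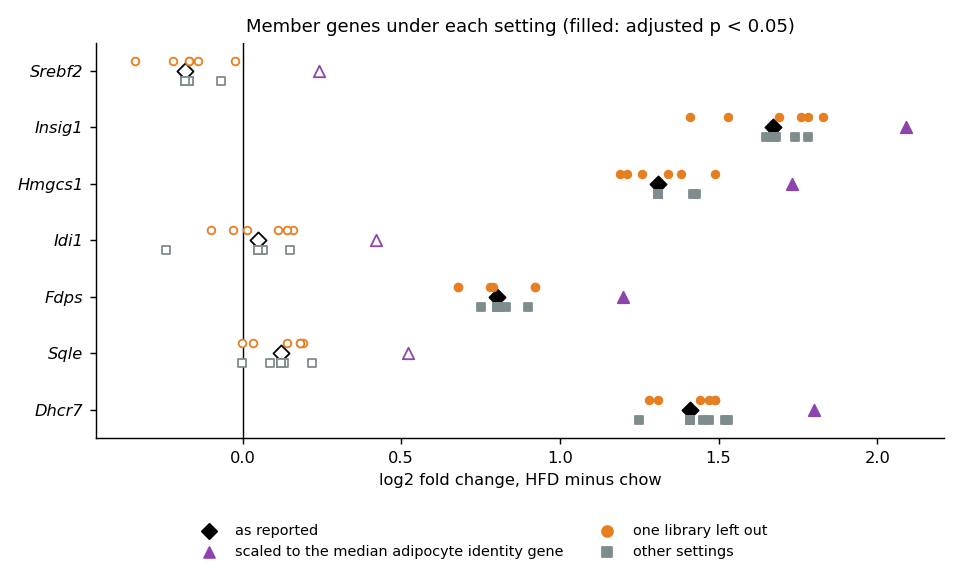
Log2 fold change, HFD minus chow, of each member gene as reported (diamond) and under the 15 other settings, with scaling to the median adipocyte identity gene as a triangle; filled marks passed limma's adjusted p threshold of 0.05. Insig1, Hmgcs1, Fdps and Dhcr7 are filled throughout and lie right of 0, while Srebf2, Idi1 and Sqle are open throughout and lie on both sides of 0.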

How the data were processed

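RNA from 6 libraries, 3 HFD and 3 chow, was analysed. Libraries were depleted of ribosomal RNA and made by tagmentation, which does not mark strand, per the labels' protocols. The deposited values are log2 CPM made by the authors, rounded to 2 decimals; HISAT2, Picard, featureCounts, edgeR and build mm10 stand in the submitters' processing notes without roles or versions, and the sources used here give neither the filter nor the prior count. The base of the logarithm was inferred from the values: base-2 anti-logs sum to 984422 to 1182123 per library.

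Each value was turned back into CPM. The 11643 of 11761 genes that averaged 1 CPM or more were tested on log2(CPM + 1) with limma (version 3.58.1, R 4.3.3; two-sided, eBayes with a trend), checked on simulated data. Depth was the largest step at which values under 20 reads came out whole, within 0.1 of a read (100% of them in each library); this covers counting error only. Count tests were not run, since the deposited unit is a log value; weighting by voom on the recovered reads was an alternative.

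The members and lists were chosen with earlier results of these data known. The 26 genes named by rule are the members, called enzymes, Scap and Insig2, and up to 3 risen and 3 fallen called genes from each other sterol list; genes beyond these, the markers and the like-profile genes are named only where a result turns on them. Some genes that the rule names are not reported here, though the counts include them. Positions and the 250 bases before starts are from RefSeq, GRCm38.p6; whole spans of 0 members overlap another listed gene, and processed copies were not searched for. Same-numbered libraries were not shown to be pairs. Columns of values not matched to a sample numbered 0.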

Additional observations from a re-analysis of the deposited data

How the results depend on the processing

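The 4 risen members kept their direction and call under all 15 alternatives, and the other 3 stayed uncalled. Without 1 library, log2 fold changes ranged from 1.41 to 1.83 for Insig1, 1.19 to 1.49 for Hmgcs1, 0.68 to 0.92 for Fdps, 1.28 to 1.49 for Dhcr7, -0.34 to -0.024 for Srebf2, -0.10 to 0.16 for Idi1, -0.003 to 0.19 for Sqle and -0.17 to -0.056 for Scap. Signs of uncalled genes turned with quantile normalization (Idi1 -0.24, Sqle -0.003) and with scaling to the median identity gene (Srebf2 0.24, Scap 0.30).

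That scaling gave 3948 higher and 435 lower genes (as reported 2221 and 1863) and 14 risen enzymes with a median of 0.68 (as reported 8 and 0.26). Under it the medians of the control and isoprenoid lists turned to 0.11 and 0.29 (from -0.30 and -0.12), with 2 control genes higher and 0 lower, 0 uptake genes lower, 1 export gene lower, and 1 isoprenoid gene higher and 1 lower. Equal totals left 2 export and 0 uptake genes lower. Smaller falls under the identity scaling are built into it; the cause of the others was not tested. Equal totals moved the median of all genes to 0.10 and gave 2513 higher and 1333 lower genes (higher calls thus took a larger share than the 2221 against 1863 reported), while the enzyme count was 9.

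Without 1 library the counts ranged from 1688 to 2101 for higher and 1162 to 1740 for lower genes, the lowest without HFD replicate 3, from 7 to 9 for risen enzymes (0 fallen in each), with enzyme medians of 0.15 to 0.38, from 4 to 7 for risen uptake genes, 4 to 7 for fallen control genes and 1 to 4 for fallen export genes. The replicate numbers were not shown to pair the libraries: correlations of same-numbered deviations were 0.433, 0.232 and 0.0862, and chow replicate 3 was closer to HFD replicate 2 (0.15). With a replicate block 2594 genes were higher and 2245 lower, 8 enzymes rose and 1 fell (Acat2, chosen after its values were seen), and no member's call changed. The depth of chow replicate 3, where 1 read is worth 0.135 CPM against 0.0254 to 0.0431 CPM elsewhere, limits low genes most.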

Other observations

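Genes that use isoprenoid intermediates of the pathway for products other than sterols were listed as well. Of 12 tested genes of ubiquinone, dolichol, prenylation and tRNA isoprenoid synthesis, 0 rose, against 19.1% of all tested genes. In the same list 3 fell, or 25.0%, against 16.0% of all tested genes, a difference that rests on few genes. The median log2 fold change was -0.12. Trit1, which puts an isoprenoid group on transfer RNA from a precursor made upstream of Fdps, had 34.3, 26.0 and 30.1 CPM in HFD and 99.7, 61.0 and 116 CPM in chow libraries (log2 fold change -1.54, SE 0.23, limma adjusted p 0.000922). Pdss2, of the ubiquinone side chain, and Rce1, a protease that trims prenylated proteins, fell by 0.66 and 0.57 (limma adjusted p 0.0115 and 0.011). Both were uncalled with the identity-gene scaling (-0.27 and -0.16), and Pdss2 without HFD replicate 3 (adjusted p 0.052).

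Ratios between genes of the same library do not depend on how libraries are scaled. The ratio of Insig1 to Insig2 CPM was 2.04, 1.79 and 3.25 in HFD replicates 1, 2 and 3, against 0.483, 0.655 and 0.299 in chow replicates 1, 2 and 3, a difference of 2.32 on the log2 scale. The ratio of Dhcr7 to Sqle was 1.40, 1.29 and 1.28 in HFD and 0.511, 0.532 and 0.463 in chow libraries. CPM are not per length, so only the difference between diets can be read. In an exact two-sided permutation test each of these ratios gave p = 0.1, the smallest that 3 against 3 libraries can give. In all, 6 ratios were computed, chosen after the values were seen, and none could pass 0.05. Insig1 was higher and Insig2 lower in every HFD library than in every chow library, so the split of their ratio follows from those values.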
